A study of Homo sapiens with 6 samples.

Results

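The genes of 8 transcription factors of the renal lineage, PAX8, PAX2, HNF4A, LHX1, WT1, SIX2, EMX2 and SALL1, were examined for binding of DPF3a, SMAD4 and p300 in 786-O cells. A binding site belonged to a gene when its summit, the position of highest read pileup in a peak, lay in the gene or within 20 kb on either side of it. The 8 genes were chosen by name from 20033 protein-coding genes of chromosomes 1 to 22, X and Y. Their windows held 20 of 51530 DPF3a peaks, 25 of 46367 SMAD4 peaks and 9 of 20380 p300 peaks.

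Chromatin immunoprecipitation followed by sequencing (ChIP-seq) had been performed in 786-O, an established cell line derived from a clear cell renal carcinoma, with 2 replicate libraries per factor and 6 samples in all. DPF3a, the short isoform of a SWI/SNF chromatin remodelling subunit, was precipitated by its HA tag from cells overexpressing the tagged protein, after fixation with DSG and formaldehyde. SMAD4, the common mediator of TGF-β and BMP signalling, and p300, a histone acetyltransferase, were precipitated with antibodies against the proteins themselves after fixation with formaldehyde only. Whether DPF3a was also overexpressed in the latter cells is not given in the labels, which name no input library either. Each factor has 1 peak list made from both replicates, so no spread between replicates can be given for any value, and 786-O is a single cell line. Intervals are at 95% and cover counting error only. Differences between lists cannot be told apart from differences in fixation, antibody, cells or depth, which was 15.8 M, 30.4 M and 27.6 M reads as recovered from the lists of DPF3a, SMAD4 and p300. Expression was not measured in these samples, so the genes were not divided into expressed and silent ones.

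PAX2 and PAX8 are paired-box factors needed for the formation of the nephric duct and nephron, and both remain in use as immunohistochemical markers of renal tumours. LHX1 is a LIM homeobox factor of the early renal vesicle, and SIX2 and SALL1 maintain the nephron progenitors of the cap mesenchyme. WT1, a zinc-finger factor mutated in some Wilms tumours, acts in progenitors and later in podocytes, EMX2 acts in the ureteric bud, and HNF4A drives the differentiated program of the proximal tubule.

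The sites that carry the findings are shown first, as hg38 sequence on the plus strand around the summit, and letters in capitals mark an exact match to the AP-1 motif TGACTCA on either strand or the TEAD motif GGAATG. The PAX8 promoter is shown for its SMAD4 summit without DPF3a, and the PAX8 upstream site for the second-highest pileup of DPF3a among all members. The PAX2 upstream site and the WT1 site in intron 3 are sites of all 3 factors, and the HNF4A site was shared by SMAD4 and p300 alone. The WT1 downstream site had the highest DPF3a enrichment of all members, and the SIX2 site was the only one in its window. The PAX8 pair, the WT1 downstream site and the wider SIX2 stretch were chosen after their values were seen, the others by the rule given with the methods.
PAX8 promoter, SMAD4 summit, chr2:113278923-113279003: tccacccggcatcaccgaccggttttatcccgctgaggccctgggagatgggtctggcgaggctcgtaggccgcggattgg
PAX8 upstream, DPF3a summit, chr2:113283987-113284087: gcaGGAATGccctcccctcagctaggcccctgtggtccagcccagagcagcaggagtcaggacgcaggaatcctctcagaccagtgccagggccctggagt
PAX2 upstream, DPF3a summit, chr10:100730893-100730993: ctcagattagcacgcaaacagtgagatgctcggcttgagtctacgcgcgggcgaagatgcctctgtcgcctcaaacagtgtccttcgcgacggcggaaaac
HNF4A intron 1, SMAD4 summit, chr20:44388690-44388790: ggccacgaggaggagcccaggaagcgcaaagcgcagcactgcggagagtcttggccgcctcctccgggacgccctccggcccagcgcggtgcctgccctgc
WT1 intron 3, DPF3a summit, chr11:32421210-32421310: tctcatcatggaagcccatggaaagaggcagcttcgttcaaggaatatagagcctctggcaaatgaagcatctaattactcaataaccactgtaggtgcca
WT1 downstream, DPF3a summit, chr11:32382787-32382887: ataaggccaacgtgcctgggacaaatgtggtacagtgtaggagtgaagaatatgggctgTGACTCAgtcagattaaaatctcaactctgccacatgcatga
SIX2 upstream, DPF3a summit, chr2:45025025-45025145: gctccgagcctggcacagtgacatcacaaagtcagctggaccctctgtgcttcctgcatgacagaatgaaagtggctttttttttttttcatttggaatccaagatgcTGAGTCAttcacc

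The first question was which of the genes carried sites. PAX8 had the most, with 8 DPF3a, 10 SMAD4 and 3 p300 summits, followed by PAX2 with 5, 5 and 2 and by WT1 with 2, 5 and 3. HNF4A had 2 DPF3a, 2 SMAD4 and 1 p300 summits, whereas SIX2, EMX2 and SALL1 each had 1 DPF3a and 1 SMAD4 summit and no p300 summit. LHX1 had none in any list. Thus 7 of 8 genes had a DPF3a site, 7 a SMAD4 site and 4 a p300 site, against 79%, 81.3% and 64.7% of all protein-coding genes in the same order. These counts stay near that background: the median of the 8 genes was 1.5 DPF3a summits, 1.5 SMAD4 summits and 0.5 p300 summits, and that of all protein-coding genes was 2, 2 and 1.

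**Figure D1:**
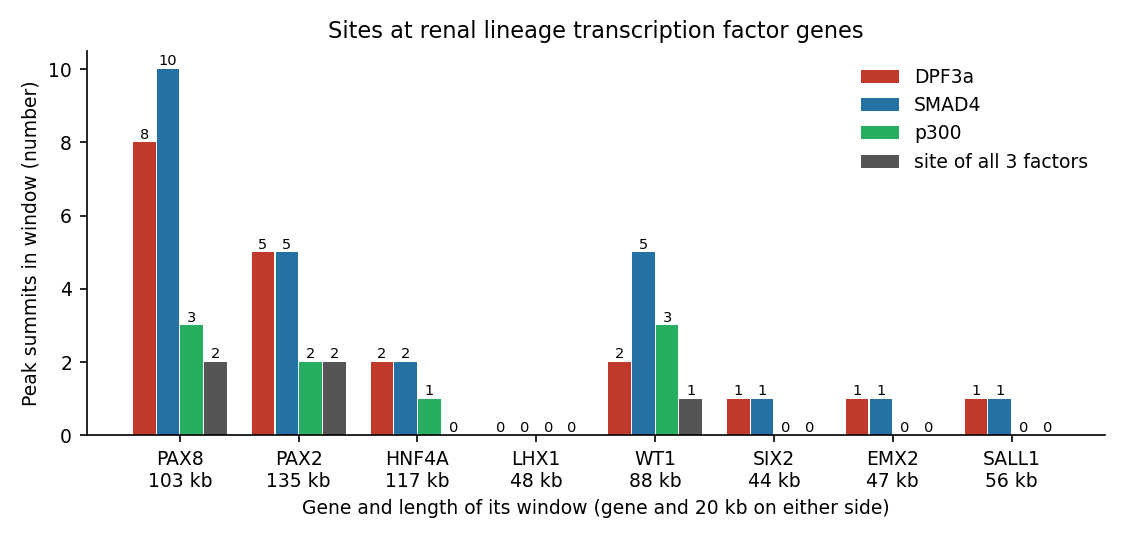
Number of peak summits (y axis) of DPF3a, SMAD4 and p300, and of sites shared by all 3, in the window of each of the 8 genes, with the window length under each gene. PAX8 has 8, 10 and 3 summits, and LHX1 has none.

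Peaks of a pair of lists were called shared where each overlapped the other over at least 0.5 of its length. There were 15 such sites for DPF3a and SMAD4, of which PAX8 had 7, PAX2 had 4, WT1 had 2 and SIX2 and SALL1 had 1 each. Hence 5 of 8 genes had such a site, against 69.1% of protein-coding genes. DPF3a and p300 shared 5 sites at 3 genes (44.6% of protein-coding genes have 1 or more), SMAD4 and p300 shared 6 sites at 4 genes (52.7%), and the 5 sites of all 3 factors lay at PAX8, PAX2 and WT1 (41.4%). No site was shared by DPF3a and p300 without SMAD4. Of the 8531 DPF3a peaks in the whole list that p300 shared, SMAD4 joined at 7820. The lack of exceptions among so few sites thus shows little about these genes. In the shared sites of DPF3a and SMAD4 the summits were a median of 56 bp apart (5 to 701 bp), against 49 bp over the whole lists. Among DPF3a sites of the members, 75% (53.1 to 88.8) were shared with SMAD4, and the share over the whole list, 59.3%, lies inside that interval. By gene, 11 of 13 were shared at PAX8 and PAX2 and 4 of 7 at the other members. Sites of 1 gene are not independent, which the interval does not take into account. Of the 9 p300 sites, 55.6% (26.7 to 81.1) were shared with both other factors, against 37.1% of the list.

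PAX8 had the highest number of shared sites of the members within 20 kb of the gene. Its window of 103 kb held 7 sites of DPF3a and SMAD4, and 3.16% of protein-coding genes had at least as many. Per length its place was similar, since 3.51% of the genes had at least its 6.80 shared sites per 100 kb. For PAX2, 13.7% of the genes had at least its 4 shared sites and 25.1% at least its density of 2.97 per 100 kb. These percentages describe where the genes lie among all genes, and neighbouring genes can count the same site. The lead of PAX8 depended on the flanks: with 5 kb on either side PAX8 and PAX2 each had 4 shared sites, in the gene body alone each had 3, and by the nearest start PAX8 had 5 and PAX2 had 4.

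**Figure D2:**
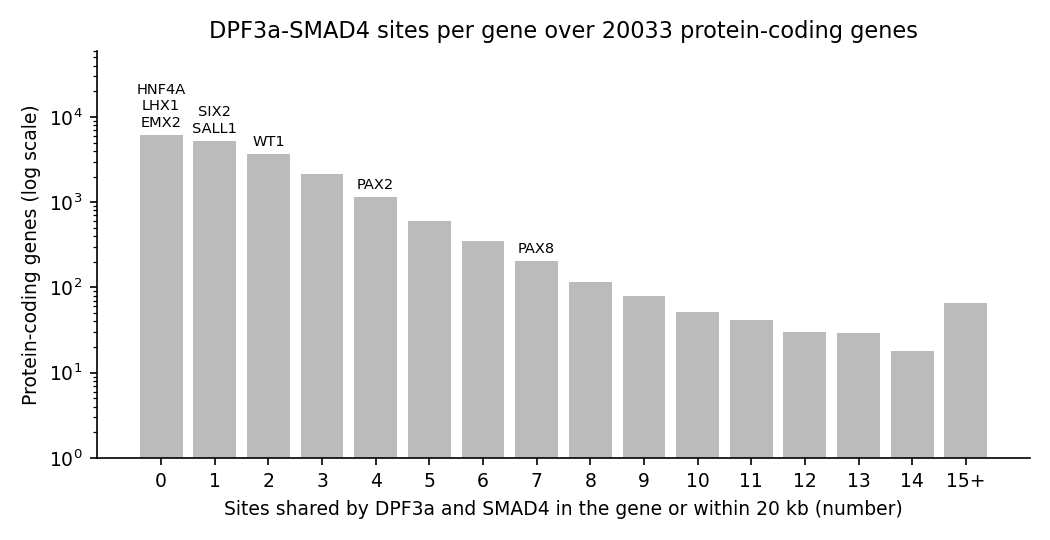
Protein-coding genes (y axis, log scale) by the number of sites that DPF3a and SMAD4 share in the gene or within 20 kb (x axis), with the names of the 8 genes above their bins. PAX8 lies at 7 sites, PAX2 at 4, WT1 at 2, SIX2 and SALL1 at 1, and HNF4A, LHX1 and EMX2 at 0.

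Within PAX8 (ENSG00000125618, hg38 chr2:113215997-113278921, minus strand), the site with the highest pileup lay in intron 7, where the antisense transcript PAX8-AS1 has an exon. The DPF3a summit at position 113241048 had a fold enrichment of 9.13, the ratio of pileup to local background with 1 added to each, and rested on 95 reads (76.9 to 116). The SMAD4 summit lay 23 bp away, at 113241071, with a fold enrichment of 8.78 and 129 reads (108 to 153). These heights lie at the 97.4th percentile of the DPF3a list and the 96.0th percentile of the SMAD4 list. An AP-1 match stood within 50 bp of the DPF3a summit. The p300 summit of this intron, at 113240257 with 41 reads and a fold enrichment of 2.92, was not shared with DPF3a and touched only a neighbouring SMAD4 peak.

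Upstream of PAX8, a pair of sites stood close to each other. The more distal, at −5116 bp from the canonical start, carried DPF3a with a fold enrichment of 7.80 and 77 reads (60.8 to 96.2). SMAD4 was there with 6.44 and 93 reads (75.1 to 114), and this is the PAX8 upstream sequence printed above, with its TEAD match near the edge of the stretch. The more proximal carried all 3 factors, whose DPF3a, SMAD4 and p300 summits stood at 113283058, 113283219 and 113283135. Its heights were 33, 76 and 42 reads, and its fold enrichments were 3.12, 4.46 and 3.94. That DPF3a fold enrichment is at percentile 0.283 of its list, among the lowest values, whereas the height is at the 66.6th percentile.

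At the PAX8 promoter itself, SMAD4 had a summit at −42 bp from the canonical start with 74 reads (58.1 to 92.9) and a fold enrichment of 4.13. No DPF3a or p300 peak touched it. The 3 sites of the window that are shared by DPF3a and SMAD4 inside the gene lay in intron 7, in intron 10 and at exon 12, where the summits at 113218543 (DPF3a, 49 reads) and 113218487 (SMAD4, 51 reads) fell on the coding and the untranslated part of the exon. The sites of the downstream flank lay in PSD4, a guanine nucleotide exchange factor gene, so 2 DPF3a, 3 SMAD4 and 1 p300 summits of the window are nearer to the start of PSD4 than to that of PAX8. They include its other site of all 3 factors, with 20, 71 and 36 reads. Counting only summits nearest to a PAX8 start left 6 DPF3a, 7 SMAD4, 2 p300 and 5 shared DPF3a-SMAD4 sites.

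PAX2 (ENSG00000075891, chr10:100735396-100829944, plus strand) had 2 sites of all 3 factors, both in front of the canonical start. The first lay at −4453 bp from the nearest PAX2 transcript start, where the DPF3a, SMAD4 and p300 summits were at 100730943, 100730927 and 100731067. It rested on 69 DPF3a reads (53.7 to 87.3), 120 SMAD4 reads (99.5 to 143) and 74 p300 reads (58.1 to 92.9), and 74 reads is the 99.7th percentile of p300 heights. The fold enrichments were 6.12, 5.27 and 4.78. The second lay between the first PAX2 start and the canonical one, with 31, 79 and 41 reads for DPF3a, SMAD4 and p300. Both stand in CpG-rich sequence, with an observed-to-expected CpG ratio of 0.842 and 0.874 over 501 bp around the DPF3a summit, against a median of 0.226 over the DPF3a list.

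At the canonical PAX2 start, SMAD4 had a summit in the untranslated part of exon 1 with 69 reads and DPF3a one with 18 reads (10.7 to 28.4), and the peaks were shared. In intron 3 the order was turned: DPF3a had 26 reads (17.0 to 38.1) and a fold enrichment of 8.82, and SMAD4 15 reads (8.40 to 24.7) and 4.40. The heights come from lists of different depth and are compared only as ranks, which were percentile 53.3 for DPF3a and 3.91 for SMAD4. A DPF3a site in the downstream flank with an AP-1 match, 15 reads high, and a SMAD4 site upstream with 59 reads touched no other list.

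**Figure D3:**
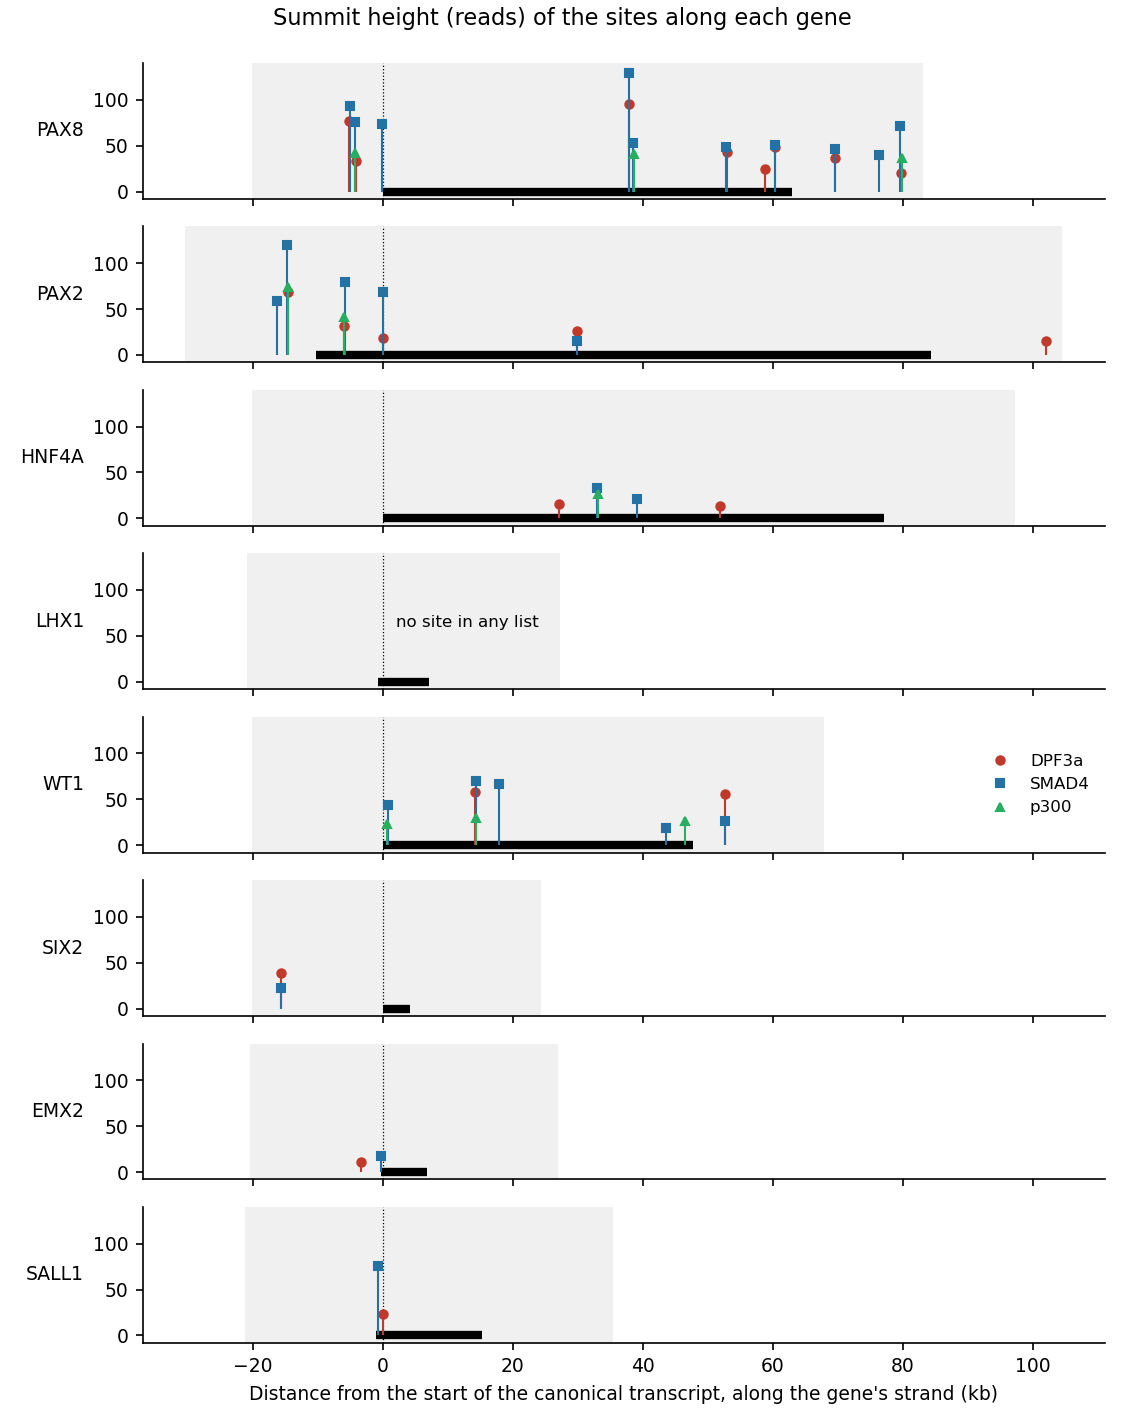
Summits along each gene, by distance from the start of the canonical transcript in kb (x axis, positive along the direction of transcription) and height in reads (y axis, not scaled for depth). The black bar is the gene, the grey field its window, and red circles, blue squares and green triangles are DPF3a, SMAD4 and p300. PAX8 and PAX2 hold the highest summits, with up to 129 and 120 reads, and LHX1 is empty.

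WT1 (ENSG00000184937, chr11:32387775-32435564, minus strand) carried its strongest DPF3a site downstream of the gene. The summit at 32382837 had a fold enrichment of 13.9 (10.6 to 18.0) and 56 reads, at the 96.7th percentile of the list, with the AP-1 match shown in the printed sequence. SMAD4 peaked 5 bp away with a fold enrichment of 5.60 and 26 reads, and p300 had no peak there. A site of all 3 factors lay in intron 3, where DPF3a, SMAD4 and p300 had fold enrichments of 9.64, 6.49 and 6.03 and heights of 58, 70 and 30 reads. No motif of the 8 searched was found in its printed stretch.

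The other sites at WT1 lay in coding exons. SMAD4 had summits in exon 1, exon 4 (67 reads) and exon 9 (19 reads), and p300 had summits in exon 1 (23 reads) and exon 10 (26 reads). None of them was shared, and those in exon 1 touched each other. The summits of exons 4, 9 and 10 lay over 2000 bp from every canonical coding start, in coding exons of 78, 93 and 119 bp, but those of exons 4 and 9 were at −37 and 90 bp from starts of other annotated WT1 transcripts. Among all members, 2 of 25 SMAD4 summits (8%, 2.22 to 24.97) were in a coding exon that far from canonical starts, against 1.22% of the list. For p300 they were 2 of 9 (22.2%, 6.32 to 54.7) against 4.34%, and for DPF3a 2 of 20 (10%, 2.79 to 30.1) against 0.839%. Those outside WT1 lay in PAX8 exon 12 and, for DPF3a and p300, in exon 16 of PSD4. The PSD4 summits belong to 1 shared site and lay 581 bp (DPF3a) and 542 bp (p300) from the start of a PSD4 transcript. The list shares cover peaks anywhere on chromosomes 1 to 22, X and Y, those far from genes included. The members' windows are centred on genes, so the shares are not on equal terms. This class of summits was not planned beforehand, and the same sites are counted in it, so its shares are a description only. The source of these exonic summits was not tested.

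HNF4A (ENSG00000101076, chr20:44355699-44432845, plus strand) had 5 summits, all in introns of the canonical transcript, and none was shared by DPF3a and SMAD4. Its strongest was a SMAD4 summit in intron 1 at 44388740, with a fold enrichment of 8.42 (5.87 to 11.7) and 33 reads. It was shared with p300, whose summit at 44388844 had a fold enrichment of 4.23 and 27 reads. The antisense gene HNF4A-AS1 covers this site. The 2 DPF3a summits were weak, with 16 reads (9.15 to 26.0) and 14 reads (7.65 to 23.5), and touched no other peak. The latter had an AP-1 match. Of the 4 members with p300 sites, HNF4A was the only one where none was shared with DPF3a. It had only 1 p300 site, and 41.9% of the whole p300 list was shared with DPF3a, so this shows little about the gene. The lack of shared DPF3a sites at HNF4A depended on the flanks. With 50 kb on either side, HNF4A had 2 sites shared by DPF3a and SMAD4, 2 by DPF3a and p300 and 2 by all 3. In those wider windows PAX8 and PAX2 each had 2 sites of all 3 factors and WT1 had 1.

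Of the progenitor factors, SIX2 (ENSG00000170577, chr2:45005182-45009452, minus strand) had 1 site, shared by DPF3a and SMAD4. It lay at −15633 bp from the start, with a DPF3a fold enrichment of 11.4 (8.21 to 15.5) on 39 reads and a SMAD4 fold enrichment of 6.59 (4.28 to 9.76) on 23 reads, and the summits were 28 bp apart. The AP-1 match of the printed stretch stands within 50 bp of the SMAD4 summit and partly outside that distance from the DPF3a summit. The nearest p300 summit was 86.8 kb from the gene, on the side of SIX3.

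SALL1 (ENSG00000103449, chr16:51135982-51152334, minus strand) had its 1 shared site at the promoter. The DPF3a summit, with 23 reads (14.6 to 34.5) and a fold enrichment of 3.51, lay in coding exon 1. The SMAD4 summit, with 76 reads (59.9 to 95.1) and a fold enrichment of 4.58, lay 701 bp away on the other side of the start. The peaks overlapped enough to be shared, while the summits were farther apart than at any other shared site of the members.

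EMX2 (ENSG00000170370, chr10:117542445-117549546, plus strand) had a DPF3a summit with 11 reads (5.49 to 19.7), the lowest height in the DPF3a list, and a separate SMAD4 summit with 17 reads (9.90 to 27.2) in its promoter. The nearest p300 summit was 100 kb away from EMX2 and 169 kb away from SALL1. At a score over 100 neither EMX2 summit was left.

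LHX1 (ENSG00000273706, chr17:36936785-36944612, plus strand) was empty, and the emptiness was not particular to the gene. In each list a stretch of 3.09 to 3.10 Mb around it held no summit, and the nearest summits lay 1172 kb upstream. The interval held 54 protein-coding genes, and the windows of all 54 are repeated on an alternate sequence of hg38. For LHX1, 23 of 24 stretches of 100 bp, taken every 2000 bp, occur exactly on an alternate sequence of chromosome 17. For each of the other 7 members the share of such stretches was 0%. The lists name 9, 9 and 5 peaks on alternate sequences for DPF3a, SMAD4 and p300, so the index that the reads were mapped to held such sequences, and reads of low mapping quality were removed. Among the 780 protein-coding genes whose windows are repeated in this way, 7.05% had a DPF3a site, against 81.9% of the other 19253. Absence of binding at LHX1 and lack of uniquely placed reads cannot be told apart. Without the repeated genes, the shares behind the counts above become 84.2% for SMAD4, 67.1% for p300 and 71.6% for sites shared by DPF3a and SMAD4, and the members counted are 7 of 7 for DPF3a, 7 of 7 for SMAD4 and 4 of 7 for p300.

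Promoters were examined next. From 1000 bp upstream to 100 bp downstream of the canonical start, DPF3a had a summit at 2 of 8 genes, PAX2 and SALL1, against 29.3% of protein-coding genes. SMAD4 had one at 4 of 8, PAX8, PAX2, SALL1 and EMX2, against 45.7%. For p300 the count was 0 of 8, against 20.3%. The p300 summit nearest to a canonical start was that of WT1 exon 1, 597 bp into the gene. It lay in the promoter of another annotated WT1 transcript and of the antisense gene WT1-AS, as did the SMAD4 summit of that exon. LHX1, whose window is repeated, is counted among the 8 genes. For DPF3a and SMAD4, 1 gene more or less would move the share of the members past the background.

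Fold enrichment and pileup gave different orders for the sites. At PAX8 and PAX2, the local background was a median of 4.74 times the lowest of the list for the 13 DPF3a sites, 5.76 times for the 15 SMAD4 sites and 5.42 times for the 5 p300 sites. Over the whole lists these medians were 2.41, 2.29 and 1.84. In ranks, the p300 sites of PAX8 and PAX2 had a median height percentile of 94.7 and a median fold enrichment percentile of 11.7, and the SMAD4 sites 76.1 and 16.4. For the members other than PAX8 and PAX2, the background was a median of 2.14 (DPF3a), 1.62 (SMAD4) and 2.37 (p300) times the lowest. SALL1 was above that, with 4.99 (DPF3a) and 7.03 (SMAD4). At WT1, the DPF3a and SMAD4 sites of intron 3 had 4.38 and 4.42 times the lowest, and the SMAD4 site of exon 4 had 4.28. The labels name no input library, so the background is taken to come from the ChIP library itself. What raised it at these genes was not tested.

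**Figure D4:**
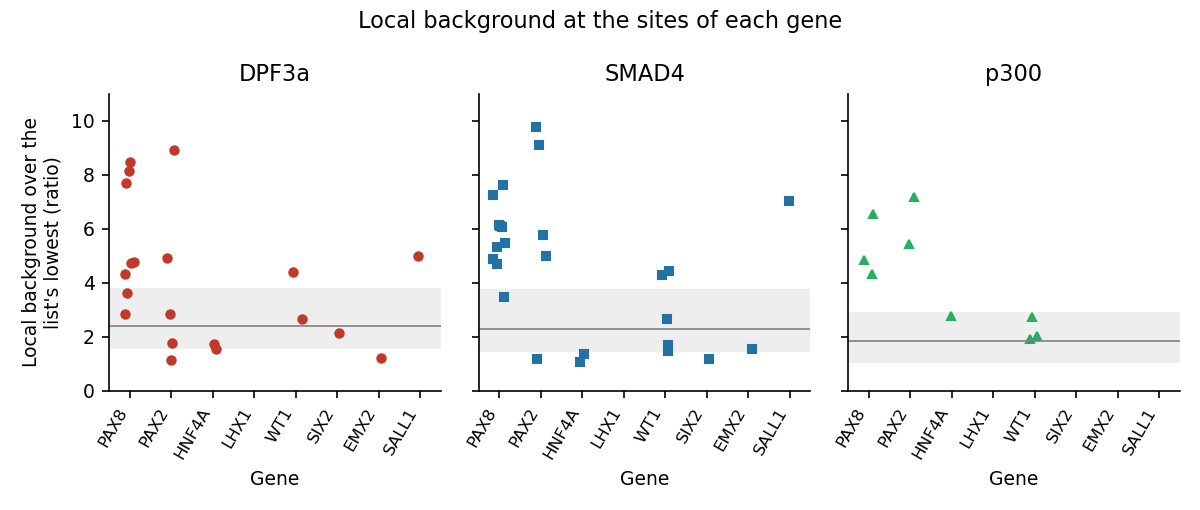
Local background at each site, in multiples of the lowest background of its list (y axis), by gene (x axis), in 1 panel per factor. The grey line and field are the median and quartiles of the whole list. Most sites of PAX8 and PAX2, both sites of SALL1 and 3 sites of WT1 lie above the field, and those of HNF4A, SIX2 and EMX2 lie inside or below it.

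**Figure D5:**
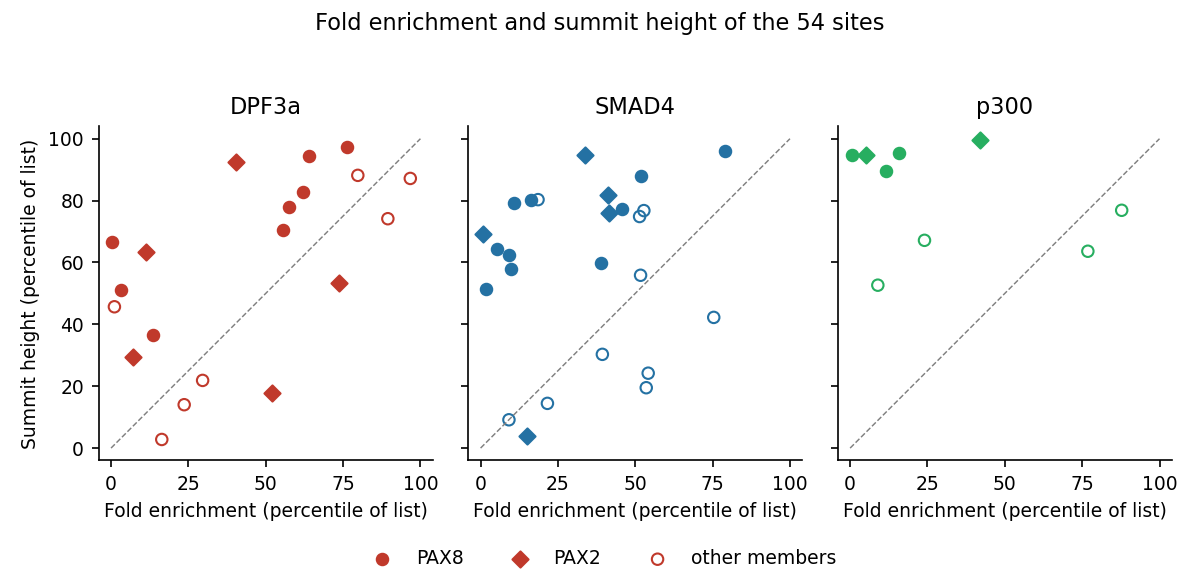
Rank of each of the 54 sites in its list by fold enrichment (x axis, percentile) and by summit height (y axis, percentile), in 1 panel per factor. All 5 p300 sites of PAX8 and PAX2 stand above the 89th percentile in height and below the 43rd in fold enrichment.

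Motifs were searched as exact matches on both strands within 50 bp of the summit. AP-1 (TGACTCA) was found at 4 of 20 DPF3a summits of the members, 20% (8.07 to 41.6) against 22% of the list, and these lay at PAX8, PAX2, HNF4A and WT1. For SMAD4 it was found at 2 of 25, 8% (2.22 to 24.97) against 15%, at WT1 and SIX2, and for p300 at 0 of 9 against 3.61%. The TEAD motif GGAATG stood at 1 DPF3a and 1 SMAD4 summit, both of the PAX8 upstream site. For DPF3a this makes 5% (0.888 to 23.6), with 12.5% in the list, and for SMAD4 4% (0.71 to 19.5), with 9.36%. The SMAD CAGA box CAGACA stood at 1 DPF3a summit, that of the proximal upstream site of PAX8, or 5% (0.888 to 23.6), with 7.71% in the list. None of the 25 SMAD4 summits had this box (0 to 13.3%), although 10.2% of the SMAD4 list did. Each of these list shares lies inside the interval of the members. The RUNX motif TGTGGTT, the SMAD palindrome GTCTAGAC, the HNF4 motif CAAAGTCCA, the PAX motif GCGTGAC and the ETS motif CCGGAAGT were at 0 of the 54 summits. Over the lists these motifs were at 7.04% of DPF3a summits or fewer, so 0 among so few sites shows little about them.

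The same windows were examined for 36 other genes of renal lineage regulators. DPF3a had a site at 26 of them (72.2%), SMAD4 at 30 (83.3%) and p300 at 18 (50%), while 19 (52.8%) had a site shared by DPF3a and SMAD4 and 8 (22.2%) a site of all 3 factors. Except for SMAD4, each of these shares was below that of all protein-coding genes given above, but for DPF3a 72.2% is near the 79% of all genes. No intervals were computed for these shares. Window lengths, on which the presence of a site depends, were not matched, so a lower share is a description only. The most shared sites were at MECOM, a zinc-finger factor, with 8, and at ESRRG, an orphan nuclear receptor, with 5, whose windows of 620 and 675 kb are longer than that of any member. PAX8 had 7 in 103 kb. By place in the kidney, a DPF3a site was at 13 of 16 genes of progenitors and stroma and at 7 of 10 of the nephron tubule. Such a site was at 5 of 8 genes of the distal tubule and collecting duct and at 1 of 2 of podocytes. Over all protein-coding genes the share was 79%, and these groups are too small to be ranked. No site of any list was at 4 of the 36 genes (11.1%), IRX1, IRX2, TFAP2B and FOXI1. The matching share over all protein-coding genes was not computed, so this count is a description only.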

How the data were processed

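The members and gene lists were chosen with earlier results of these data known. Per the labels and the study's methods, reads were trimmed with cutadapt, mapped to hg38 with Bowtie2 2.3.5.1, filtered for mapping quality, mitochondrial reads and duplicates (Picard), and peaks were called with MACS2 2.2.5. The authors made 1 list per factor from both replicates and kept scores over 50 (the lowest deposited score is 51). How the replicates were combined is not stated in the labels or the study's methods. The fold enrichment the authors deposited is the ratio that the peak caller computed between pileup and local background. The −log10 p and −log10 q values the authors deposited were computed by the peak caller from the same pileup and background. Summit height in whole reads and local background were computed from fold enrichment and −log10 p, with Poisson intervals, in a script tested on simulated data. Depth assumes fragments of 200 bp and a genome of 2.7 Gb. Genes are those of GENCODE 44. The overlap code gave the calls of bedtools 2.31.1. Shares have Wilson intervals. Values are compared within a list, and no test between samples was possible.

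All 8 members are named, with the other regulators that had the most shared DPF3a-SMAD4 sites, by a rule that takes 3, of which 1 is not reported here. The sequence rule took the shared site whose product of fold enrichment percentiles was highest or, with none, the summit of highest percentile, and left out stretches that meet an exon. For EMX2 that stretch is not shown. Alternatives were scores over 100 and 200, the gene body only, 5 and 50 kb on either side, the nearest start, 1 bp overlap, −log10 q, 2500 bp promoters and 100 bp motif windows. Leaving out repeated windows was added after the data were seen, and the class of coding-exon summits far from canonical starts was not planned either.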

Additional observations from a re-analysis of the deposited data

How the results depend on the processing

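No paired analysis was possible because each peak list was made from both replicates, which also prevented leaving 1 replicate out. With 5 kb or 50 kb on either side, or the nearest start, all 10 counts stayed within 1.5 times their value, as did the 4 counts of shared sites with 1 bp overlap. The score threshold changed most: over 100, DPF3a sites fell from 20 to 11 and p300 sites from 9 to 3, with 2 sites shared by DPF3a and p300, 3 by SMAD4 and p300 and 2 by all 3, and 4 genes with a DPF3a site. Over 200, 8 DPF3a, 13 SMAD4 and 1 p300 sites were left, with 4 sites shared by DPF3a and SMAD4 and 1 by each of the other combinations, and 4 genes had a DPF3a and 1 a p300 site. In the gene body alone there were 11 DPF3a and 15 SMAD4 sites, with 8 shared by both, 2 by DPF3a and p300, 3 by SMAD4 and p300 and 2 by all 3. Fewer peaks or less sequence enter these counts by construction. For single genes, PAX8 had the most DPF3a-SMAD4 sites of the members at scores over 100 (5) and 200 (2), but equalled PAX2 with 5 kb on either side (4 each, from 7 and 4) and in the gene body alone (3 each). Within 2500 bp of a start, the promoter share of the members' summits was 45% for DPF3a (list 33.0%), 52% for SMAD4 (list 42.6%) and 33.3% for p300 (list 52.4%). In the narrower window this share was 15%, 28% and 11.1%, against 20.1%, 29.8% and 36.9% of the lists. Both windows were laid around the starts of all annotated transcripts of any gene, not only canonical ones. The narrower one began 1000 bp before a start and ended 100 bp after it. These shares of summits are therefore not comparable with the counts of canonical promoters given above. The DPF3a and SMAD4 shares thus passed from below their lists to above them, while that of p300 stayed below. In the narrower window the intervals were 5.24 to 36.0% (DPF3a), 14.3 to 47.6% (SMAD4) and 1.99 to 43.5% (p300). Within 2500 bp they were 25.8 to 65.8%, 33.5 to 70.0% and 12.1 to 64.6% in the same order. Each list share lies inside the matching interval, so these shares cannot be told apart from those of the lists. Ranking by −log10 q named the same strongest site in 16 of 18 combinations of gene and list. Sites of few reads, down to 11 at EMX2, have the widest counting intervals relative to their height.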
